A study of Rattus norvegicus with 10 samples.

Results

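Genes that carry the dopamine signal through cyclic AMP were followed across 5 regions of the rat brain: Gnal, Arpp21, Pde1b, Pde2a and Prkaca. Every probe set annotated to 1 of these symbols alone was taken, which gave 7 probe sets of the 8740 on the array that are not controls. Gnal, Pde1b and Pde2a had 1 probe set each, and Arpp21 and Prkaca had 2 each. All 7 passed the filter on low values and had a value on every array, so none was left out of the tests.

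Dopamine receptors act in opposite ways on adenylyl cyclase, the enzyme that makes cyclic AMP: the D1 receptor stimulates it and the D2 receptor inhibits it. In the projection neurons of the striatum the stimulating G protein is mainly Golf, whose alpha subunit is encoded by Gnal, and not Gs. Cyclic AMP activates protein kinase A, whose catalytic alpha subunit is encoded by Prkaca. The kinase phosphorylates small proteins such as ARPP-21, the product of Arpp21, which binds calmodulin when phosphorylated. Phosphodiesterases end the signal: the product of Pde1b is activated by calcium and calmodulin, and that of Pde2a by cyclic GMP.

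RNA came from the caudate putamen (below, the caudate), nucleus accumbens (the accumbens), amygdala, prefrontal cortex and ventral tegmental area. Each region was measured on 1 array from cocaine-treated rats and 1 array from saline-treated controls, 10 arrays in all. Cocaine blocks the reuptake of dopamine. The ventral tegmental area holds dopamine neurons that project to regions sampled here, among them the accumbens, amygdala and prefrontal cortex. The sources used here do not give strain, age, dose, route, duration, time of dissection or pooling of animals. The values are expression indices, on a linear scale of probe brightness. A region has no repeat of either treatment, so an SD of a region (n = 2) spans 1 saline and 1 cocaine array and includes any effect of treatment.

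The median index of an array lay between 2208 and 2310. The saline and cocaine arrays of a region correlated across tested probe sets with r between 0.939 in the amygdala and 0.991 in the caudate. The prefrontal cocaine array stood apart, with 226 exact zeros and a median r of 0.910 to the rest, where the other arrays had 0.928 to 0.966. Against the marker lists, 6 of the 7 tested genes of striatal projection neurons were higher in the 2 striatal regions than elsewhere, with Pdyn the exception. Of all tested probe sets, 2.06% were higher there. Of 5 tested genes of dopamine neurons, Th and Aldh1a1 were higher in the ventral tegmental area than in the other 4 regions, as 7.97% of all tested probe sets were. Slc6a3, Ddc and Pitx3 did not pass the threshold. Hcrt, a peptide gene of hypothalamic neurons, was also higher in the ventral tegmental samples, while Avp, Pomc and Trh of the same list did not pass. The summed index of these 4 genes there was 34623 on the saline and 16347 on the cocaine array. Hcrt alone had a mean of 15218 ± 11893 (SD, n = 2) there. In tissue samples, fewer cells of a type and less RNA per cell cannot be told apart.

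The sequences just upstream of 3 of the genes are shown because Gnal and Arpp21 had the widest regional ranges among the members, while the Prkaca probe sets were not higher in the striatum. They are the 250 bases before the RefSeq start of each gene in build GRCr8, read 5′ to 3′ on the gene's strand. Capitals mark CCAAT, the CCAAT box, and TGACG, the half-site of the cyclic AMP response element, on either strand, so that ATTGG and CGTCA are their reverse complements.
Gnal, chr18:62892007-62892256, plus strand: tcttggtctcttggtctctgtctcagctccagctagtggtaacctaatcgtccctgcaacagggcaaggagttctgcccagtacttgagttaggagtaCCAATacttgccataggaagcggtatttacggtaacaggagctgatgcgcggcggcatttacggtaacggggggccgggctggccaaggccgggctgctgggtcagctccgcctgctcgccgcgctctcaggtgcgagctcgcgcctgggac
Arpp21, chr8:121031358-121031607, minus strand: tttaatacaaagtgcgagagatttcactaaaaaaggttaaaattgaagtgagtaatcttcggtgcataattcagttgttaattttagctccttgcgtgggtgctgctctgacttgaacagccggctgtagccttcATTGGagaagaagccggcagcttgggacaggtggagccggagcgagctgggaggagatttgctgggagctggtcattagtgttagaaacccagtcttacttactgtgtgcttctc
Prkaca, chr19:41083190-41083439, minus strand: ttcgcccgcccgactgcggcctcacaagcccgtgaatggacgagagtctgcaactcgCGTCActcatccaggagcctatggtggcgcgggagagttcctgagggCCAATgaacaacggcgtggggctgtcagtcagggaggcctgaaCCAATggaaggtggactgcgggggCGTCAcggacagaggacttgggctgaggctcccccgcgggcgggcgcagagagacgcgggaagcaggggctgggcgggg
GC content was 60.4% for Gnal, 46.4% for Arpp21 and 67.6% for Prkaca, against a median of 51.2% over 33469 rat promoters of that length. The window of Prkaca held 2 TGACG half-sites and 2 CCAAT boxes, and the windows of Gnal and Arpp21 held 1 CCAAT box each and no half-site. Across all promoters, 18.22% held TGACG and 34.02% held CCAAT on either strand. The whole element TGACGTCA, found in 1.59% of promoters and containing the half-site, was in none of the 3 windows, nor was TATAAA, found in 12.93%. The GC box GGGCGG, found in 30.47%, had 3 matches upstream of Prkaca and none upstream of Gnal or Arpp21. Starts were listed for 4 of the 5 genes, all but Pde1b. Pde2a had 2 of them, on chromosome 1, with no TGACG or CCAAT at either and 6 GC boxes at 1 of them. These matches describe the letters in the windows only.

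Gnal, the G protein subunit that couples the D1 and adenosine A2a receptors to adenylyl cyclase, was highest in both striatal regions and lowest in the prefrontal cortex. Its index was 5359 on the saline and 4737 on the cocaine array of the caudate, 5826 and 5016 in the accumbens, 2279 and 2651 in the amygdala, 1428 and 1517 in the ventral tegmental area, and 885 and 913 in the prefrontal cortex. The 4 striatal arrays lay above all 6 others, and the lowest striatal value exceeded the highest amygdala value. Both prefrontal values lay under the floor, an index of 1028, to which low values were raised before log2 was taken, so folds against that region are lower bounds. The region means were 5421 ± 573 (SD, n = 2) in the accumbens, 5048 ± 440 in the caudate, 2465 ± 263 in the amygdala, 1472 ± 63.1 in the ventral tegmental area and 899 ± 19.6 in the prefrontal cortex.

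The accumbens and caudate were not distinguished for Gnal: they differed by 0.10 ± 0.13 (SE) on the log2 scale, with an interval from -0.20 to 0.40, and their arrays overlapped. Every later step in the order passed the threshold. The caudate was 2.05-fold above the amygdala (adjusted p = 0.0063, limma), the amygdala 1.67-fold above the ventral tegmental area (adjusted p = 0.016), and the ventral tegmental area at least 1.43-fold above the prefrontal cortex (adjusted p = 0.041). From the accumbens to the prefrontal cortex the range was at least 5.26-fold. The step from amygdala to ventral tegmental area thus separated a region with intermediate Gnal from 2 with low Gnal.

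**Figure D1:**
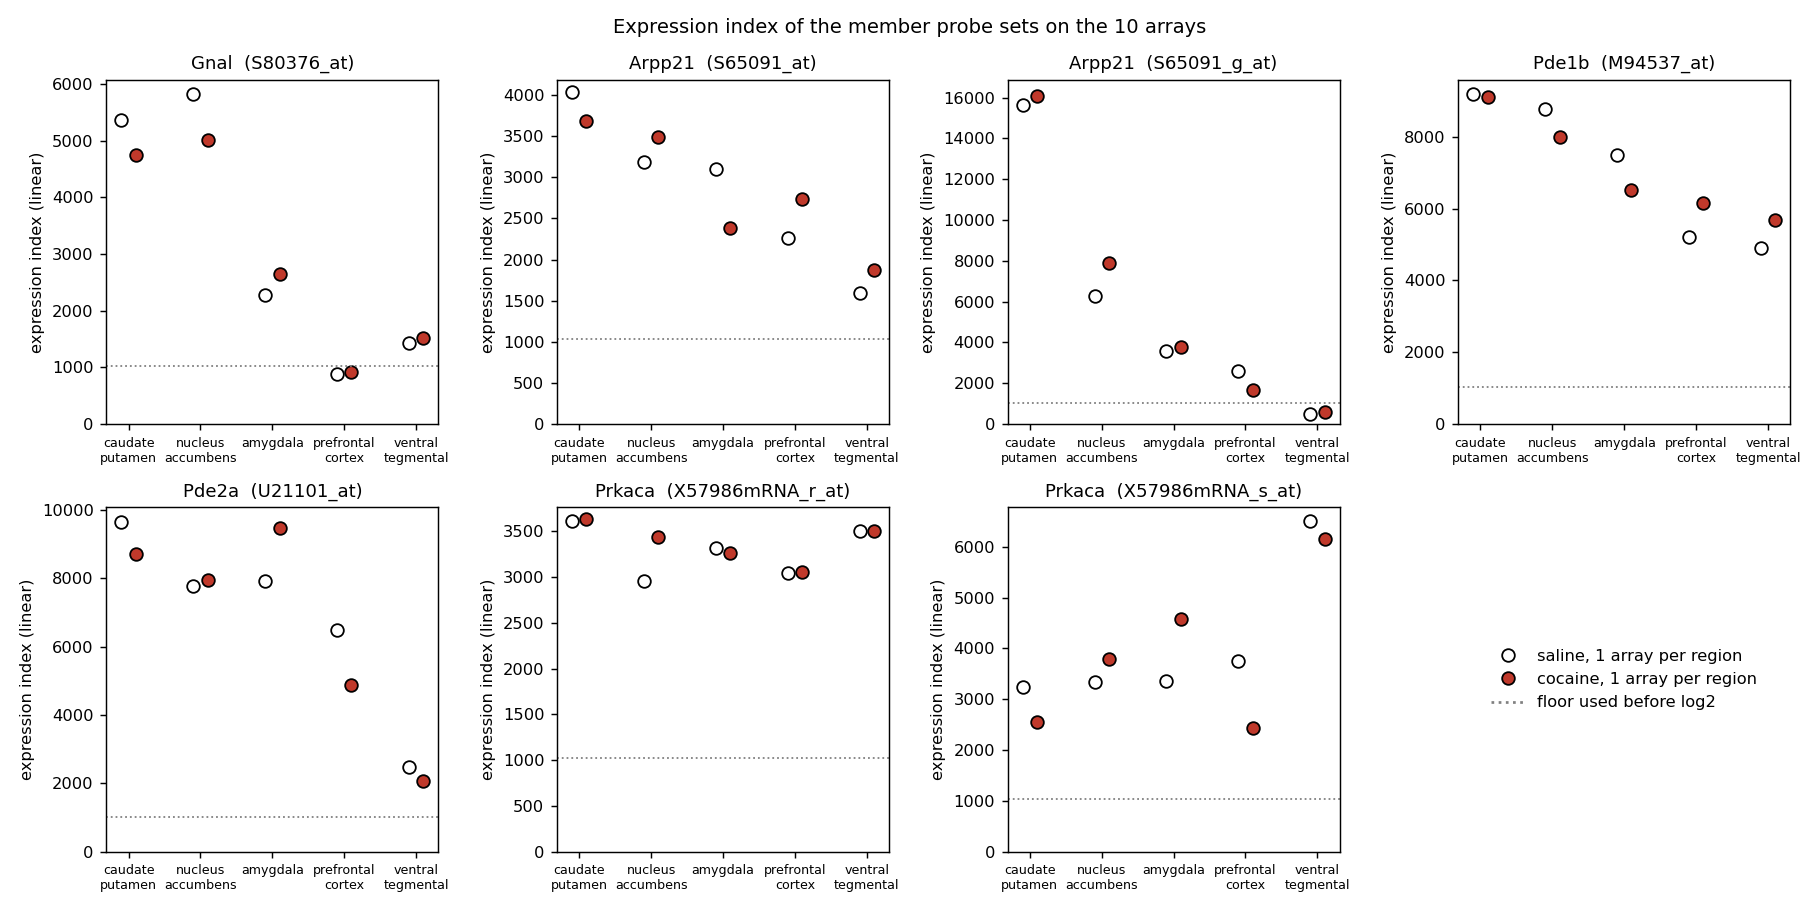
Expression index, on a linear scale of probe brightness, of the 7 member probe sets in the 5 regions. Open points are the saline and filled points the cocaine array of a region, 1 array each, and the dotted line is the floor of 1028 used before log2. Gnal runs from 5826 in the accumbens to 885 in the prefrontal cortex, the X57986mRNA_s_at probe set of Prkaca has its 2 highest values in the ventral tegmental area, and X57986mRNA_r_at stays between 2954 and 3632.

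Arpp21, the kinase substrate, had the widest range of the members, and was highest in the caudate on its brighter probe set, S65091_g_at. There the index was 15635 on the saline and 16092 on the cocaine array of the caudate, 6260 and 7876 in the accumbens, 3585 and 3773 in the amygdala, 2606 and 1648 in the prefrontal cortex, and 494 and 578 in the ventral tegmental area. No region overlapped the next in this order, and both ventral tegmental values lay under the floor. The means were 15864 ± 324 (SD, n = 2) in the caudate, 7068 ± 1142 in the accumbens, 3679 ± 133 in the amygdala, 2127 ± 677 in prefrontal cortex and, under the floor, 536 ± 59.6 in the ventral tegmental area.

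From the caudate to the ventral tegmental area the S65091_g_at probe set of Arpp21 fell at least 15.4-fold (adjusted p = 5.8e-05, limma). Between neighbours in the order only the last step passed, the prefrontal cortex being at least 2.02-fold above the ventral tegmental area (adjusted p = 0.018). The caudate exceeded the accumbens by 1.18 ± 0.21 (SE) on the log2 scale, 2.26-fold, which narrowly missed the threshold (adjusted p = 0.054). Steps of 0.93 from the accumbens to the amygdala (adjusted p = 0.19) and 0.83 from the amygdala to the prefrontal cortex (adjusted p = 0.25) were also not resolved, although the arrays did not overlap.

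The dimmer probe set of Arpp21, S65091_at, gave the same order of regions over a smaller range. Its index was 4035 on the saline and 3682 on the cocaine array of the caudate, 3189 and 3491 in the accumbens, 3102 and 2382 in the amygdala, 2259 and 2730 in the prefrontal cortex, and 1596 and 1878 in the ventral tegmental area. The striatal arrays again lay above all others, by a narrow margin over the saline amygdala array, and amygdala and prefrontal arrays overlapped. The caudate was 2.23-fold and the accumbens 1.93-fold above the ventral tegmental area (adjusted p = 0.0048 and 0.019), and no step between neighbours passed. Across the 10 arrays the 2 probe sets of Arpp21 correlated with r = 0.91, a description over arrays that share regions.

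Pde1b, the calmodulin-dependent phosphodiesterase, declined gradually from the striatum to the ventral tegmental area. Its index was 9186 on the saline and 9100 on the cocaine array of the caudate, 8787 and 7988 in the accumbens, 7492 and 6524 in the amygdala, 5213 and 6166 in the prefrontal cortex, and 4900 and 5695 in the ventral tegmental area. All striatal arrays lay above all others, while prefrontal and ventral tegmental arrays overlapped. The caudate was 1.73-fold above the ventral tegmental area and 1.61-fold above the prefrontal cortex (adjusted p = 0.010 and 0.026), and the accumbens 1.59-fold above the ventral tegmental area (adjusted p = 0.033). No neighbouring regions were distinguished: the steps were 0.13, 0.26, 0.30 and 0.10 on the log2 scale, each with an SE of 0.13.

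Pde2a, the phosphodiesterase stimulated by cyclic GMP, was lowest in the ventral tegmental area, with the amygdala and both striatal regions at the top of its order. Its index was 9644 on the saline and 8698 on the cocaine array of the caudate, 7922 and 9485 in the amygdala, 7781 and 7954 in the accumbens, 6477 and 4890 in the prefrontal cortex, and 2472 and 2079 in the ventral tegmental area. The amygdala arrays fell within the range of the striatal arrays, and both ventral tegmental arrays lay below all others. The 3 highest regions were not distinguished from one another. The prefrontal cortex was 2.48-fold above the ventral tegmental area (adjusted p = 0.0018) and the caudate 4.04-fold above it (adjusted p = 0.00026). The caudate was also 1.63-fold above the prefrontal cortex (adjusted p = 0.046), while the step from accumbens to prefrontal cortex, 0.48 ± 0.16 (SE), was not resolved (adjusted p = 0.23).

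Prkaca, the catalytic subunit of the kinase, gave different patterns on its 2 probe sets. On the brighter set, X57986mRNA_s_at, the index was 6499 on the saline and 6155 on the cocaine array of the ventral tegmental area, 3361 and 4579 in the amygdala, 3332 and 3788 in the accumbens, 3747 and 2429 in the prefrontal cortex, and 3241 and 2547 in the caudate. The ventral tegmental arrays stood above all others. Neighbouring forebrain regions in this order overlapped, but both caudate arrays lay below both accumbens and both amygdala arrays. The ventral tegmental area was 2.20-fold above the caudate and 2.10-fold above the prefrontal cortex (adjusted p = 0.022 and 0.023), but the step down to the amygdala, 0.69 ± 0.23 (SE), did not pass (adjusted p = 0.15).

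On the X57986mRNA_r_at probe set of Prkaca the index was 3614 on the saline and 3632 on the cocaine array of the caudate, 3507 and 3500 in the ventral tegmental area, 3315 and 3269 in the amygdala, 2954 and 3437 in the accumbens, and 3048 and 3051 in the prefrontal cortex. The highest region was 1.19-fold above the lowest, and none of 10 pairs of regions passed the threshold. In the manufacturer's naming the suffix s marks a set whose probes can match more than 1 transcript, and r a set chosen under relaxed rules. The 2 sets correlated with r = 0.26 across the 10 arrays, and whether their regional differences are unequal was not tested.

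With all 5 regions in 1 test, 5 of the 7 probe sets differed by limma's F test, where 9.62% of all 4894 tested probe sets did. They were Gnal (adjusted p = 0.00015), Arpp21 S65091_g_at (adjusted p = 0.00020), Pde2a (adjusted p = 0.00083), Arpp21 S65091_at (adjusted p = 0.021) and Pde1b (adjusted p = 0.024). The probe sets of Prkaca had adjusted p of 0.067 for X57986mRNA_s_at and 0.54 for X57986mRNA_r_at. Among the 70 differences between pairs of regions, 28 passed, against 4.21% of all such differences on the array. With all 8229 probe sets that had a value on every array tested, dim ones included, 3 members passed the F test. In that setting 193 of the 8229 passed it, and 14 member differences between pairs passed, of 1101 that did on the array. With exact zeros raised to the floor, 3 members and 20 member differences passed, where 285 of 5244 probe sets and 1438 differences did. Of the 28, Gnal held 9, Arpp21 9 over both probe sets, Pde2a 5, Pde1b 3 and Prkaca 2.

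The striatum is where Golf, ARPP-21 and the product of Pde1b are best known. The mean of the caudate and accumbens was set against the mean of the other 3 regions. On the log2 scale, Gnal was higher by 1.75 ± 0.084 (SE), 3.37-fold (adjusted p = 3.1e-05, limma). Arpp21 was higher by 2.41 ± 0.13 on S65091_g_at, 5.31-fold (adjusted p = 5.5e-05), and by 0.66 ± 0.11 on S65091_at, 1.58-fold (adjusted p = 0.015). Of the phosphodiesterases, Pde2a was higher by 0.82 ± 0.10, 1.77-fold (adjusted p = 0.0045), and Pde1b by 0.56 ± 0.086, 1.47-fold (adjusted p = 0.012). For Gnal and for S65091_g_at some of the values entering the mean were at the floor, so these sizes are lower bounds.

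The probe sets of Prkaca did not pass in that comparison. The difference was -0.40 ± 0.15 (SE) on X57986mRNA_s_at, with an interval from -0.74 to -0.055 (adjusted p = 0.27), and 0.053 ± 0.065 on X57986mRNA_r_at, with an interval from -0.099 to 0.20 (adjusted p = 0.75). In all, 5 of 7 member probe sets, both of Arpp21 among them, were higher in the striatum, where 2.06% of tested probe sets were. For 4 of them, those of Gnal, Arpp21 and Pde1b, every striatal array lay above every other array, as it did for 1.74% of tested probe sets. Because members were chosen with earlier results of these data known, their counts here and in the other region comparisons are a description only. With Pde2a the saline and cocaine arrays of the amygdala lay within the striatal range. The summed index of the 7 tested markers of striatal projection neurons was also highest on striatal arrays, at 70865 to 102211, with 44339 to 46095 in the amygdala, 29492 to 30203 in the ventral tegmental area and 21169 to 22983 in the prefrontal cortex. That sum was thus lowest in the prefrontal cortex, as Gnal was, whereas Arpp21, Pde1b and Pde2a had their lowest means in the ventral tegmental area. Of the single markers, Drd1 was lowest in the ventral tegmental area, and Drd2, Adora2a, Penk, Tac1 and Rgs9 were lowest in the prefrontal cortex. Pdyn, which did not pass across regions (adjusted p = 0.95, limma's F test), enters the sum with a mean of 9522 in the prefrontal cortex. The part of cell composition in the members' differences was not tested.

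Gnal and S65091_g_at of Arpp21 passed in this comparison with each of the 10 arrays left out in turn. S65091_at and Pde1b did not pass when any 1 of the 4 striatal arrays was left out, and Pde2a did not without either caudate array or the cocaine array of the accumbens, which leaves 2 or 3 of the 7 probe sets, although their differences remained positive. Without the saline array of the ventral tegmental area 4 remained, and without the cocaine array of the prefrontal cortex, which stands apart from the rest, 5 did. With both prefrontal arrays left out, X57986mRNA_s_at of Prkaca was lower in the striatum by a difference of -0.64 (adjusted p = 0.033). With all 8229 probe sets that had a value on every array tested, only Gnal and S65091_g_at of the members passed, where 106 of the 8229 did.

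**Figure D2:**
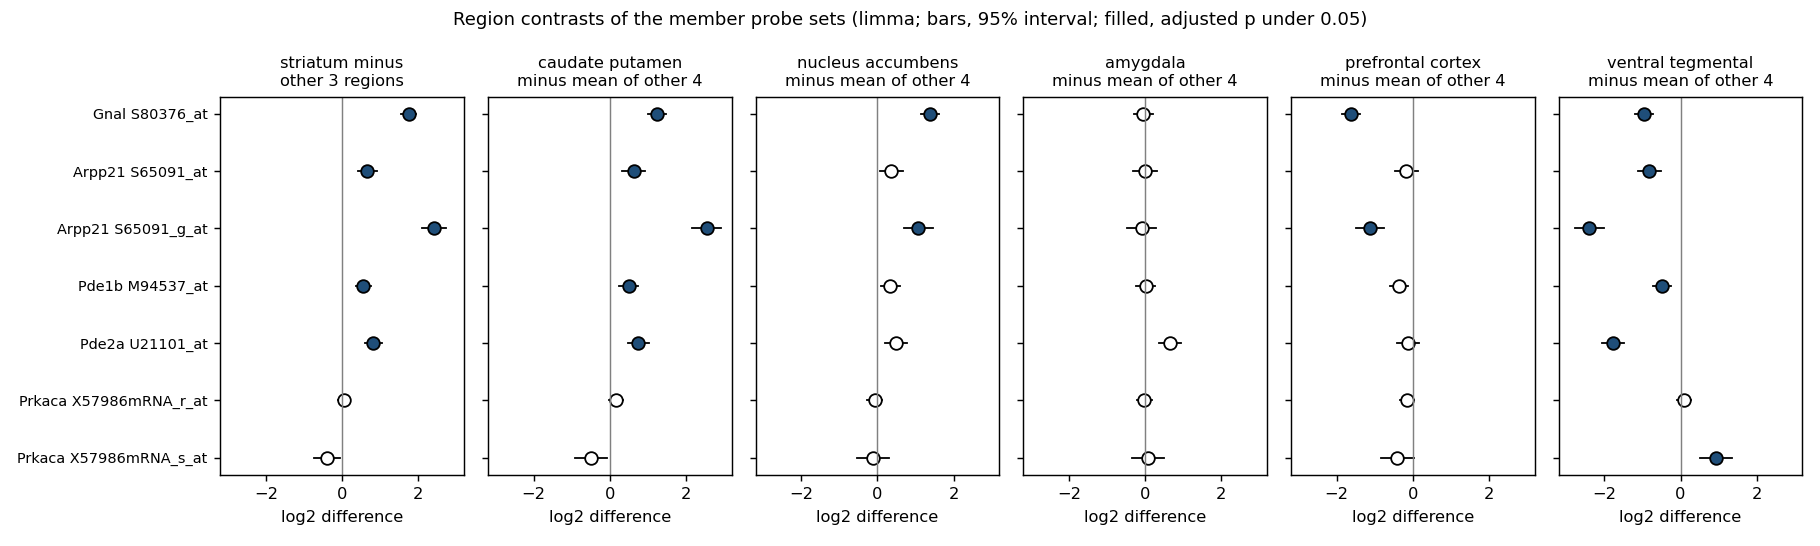
Differences in log2 expression index for the 7 member probe sets, with the striatum against the other 3 regions in the first panel and single regions against the mean of the remaining 4 after it. Points are limma estimates over 10 arrays, bars their 95% intervals, and filled points have an adjusted p under 0.05. Gnal and both Arpp21 probe sets lie to the right in the striatal and caudate panels and to the left in the ventral tegmental panel, where X57986mRNA_s_at of Prkaca lies to the right at 0.93.

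Each region was also set against the mean of the other 4, and 15 of 35 member differences passed, where 4.43% of such differences passed across the array. The caudate was above the others for 5 of 7 probe sets (1.82% of all tested): Arpp21 S65091_g_at by 2.54 and S65091_at by 0.63, Gnal by 1.25, Pde2a by 0.75 and Pde1b by 0.50 on the log2 scale, where the values of Gnal and S65091_g_at are lower bounds because floored regions enter the means. S65091_g_at had the largest difference of all 4894 probe sets in that direction. The accumbens was above the others for 2 of 7 (0.47% of all tested), Gnal by 1.38 ± 0.10 (SE) and S65091_g_at by 1.07 ± 0.16. The accumbens call of S65091_g_at (adjusted p = 0.036) was lost when arrays were scaled to one median or quantile normalized, at adjusted p of 0.065 and 0.078, when exact zeros were raised to the floor (0.12) and when all probe sets were tested (0.37), and it did not pass without any 1 of the caudate, accumbens or ventral tegmental arrays. That of Gnal was lost without the saline accumbens array (adjusted p = 0.12). In the caudate, the calls of S65091_at and Pde1b were lost with exact zeros raised to the floor (adjusted p = 0.087 and 0.083) and with all probe sets tested (0.16 and 0.13). With all probe sets tested the calls of Pde2a in the caudate (0.089), S65091_g_at in the prefrontal cortex (0.091), and S65091_at (0.059), Pde1b (0.082) and X57986mRNA_s_at of Prkaca (0.10) in the ventral tegmental area, described next, were lost as well.

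In the amygdala none of the 7 passed, against 0.654% of all tested, the nearest being Pde2a at 0.65 ± 0.12 (SE; adjusted p = 0.076). The prefrontal cortex was below the others for 2 of 7 probe sets (3.86% of all tested), Gnal and S65091_g_at. Both prefrontal values of Gnal were at the floor, so its difference of -1.62 is a bound set by the floor, and it was -1.81 with the floor at the 10th percentile. For S65091_g_at the difference was -1.13, or -0.96 with the lower floor, which moves the ventral tegmental values in the mean of the other regions. The ventral tegmental area was below the others for 5 of 7 (3.45% of all tested), with differences of -1.76 for Pde2a, -0.97 for Gnal (-0.92 with the lower floor), -0.82 for S65091_at and -0.49 for Pde1b. For S65091_g_at both ventral tegmental values were at the floor, and the difference of -2.39 is a bound, which became -3.06 with the lower floor. The ventral tegmental area was above them only for X57986mRNA_s_at of Prkaca, by 0.93 ± 0.18 (adjusted p = 0.016), where 7.97% of tested probe sets were higher. That call did not pass without either ventral tegmental array (adjusted p = 0.17 without the saline and 0.19 without the cocaine array). Other calls that rested on single arrays were those of S65091_at and Pde1b in the caudate, which did not pass without any 1 of the striatal or ventral tegmental arrays or the saline prefrontal array, and of Pde2a there, which did not without either caudate array or the saline accumbens array. In the ventral tegmental area S65091_at did not pass without either of that region's arrays, nor did Pde1b, which also did not without either caudate array or the saline accumbens array. Gnal and Pde2a differed in where they were lowest, Gnal in the prefrontal cortex and Pde2a in the ventral tegmental area.

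The other genes of the pathway were read from lists grouped by role, 1 probe set standing for each gene. Among G protein subunits, 3 of 16 tested genes differed across regions, where 9.62% of all tested probe sets did. Gng7, a gamma subunit that pairs with Golf in striatal neurons, went the way of Gnal, from 16040 ± 251 (SD, n = 2) in the caudate to 5263 ± 34.1 in the ventral tegmental area. It was 2.26-fold higher in the striatum than in the other 3 regions (adjusted p = 0.00017). Gnas, the alpha subunit of Gs and the relative that Golf replaces there, went the opposite way to Gnal: its index was 42016 ± 5055 in the amygdala and 21080 ± 694 in the caudate, and it was lower in the striatum by a difference of -0.51 ± 0.076 (SE; adjusted p = 0.011). All 4 tested probe sets of Gnas were lower in the striatum, with differences from -0.84 to -0.37. Gng10 was higher by 0.40 (adjusted p = 0.018), and Gnb1, the next by p, did not pass (adjusted p = 0.056 across regions). The median striatal difference of the list was 0.07, against -0.03 over all tested probe sets.

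Of 5 tested adenylyl cyclases 1 differed across regions, where 9.62% of all tested probe sets did. It was Adcy5, the main cyclase of striatal projection neurons, which ran from 4852 ± 125 (SD, n = 2) in the caudate to 2569 ± 297 in the ventral tegmental area. Adcy5 was higher in the striatum by 0.62 ± 0.069 (SE), 1.53-fold (adjusted p = 0.0028), close in size to Pde1b. Adcy2, next by p, did not pass (adjusted p = 0.060). Of 6 other phosphodiesterases tested, again 1 differed (9.62% of all tested): Pde4b, which is specific for cyclic AMP, stood at 7002 ± 464 in the accumbens and 4221 ± 710 in the prefrontal cortex, and was 1.41-fold higher in the striatum (adjusted p = 0.017). Median striatal differences were -0.0025 over the cyclases and -0.09 over the phosphodiesterases, with 1 gene of each list higher in the striatum. The phosphodiesterase list leaves out the members Pde1b and Pde2a. Of its 22 genes 10 were on the array, and Pde10a had no probe set annotated to it alone. Adcy5 had 1 tested probe set of 3 on the array, and Pde4b 1 of 4.

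Among 8 tested kinase subunits, inhibitors and anchors, Prkar1b and Pkia differed across regions, 2 of 8 where 9.62% of all tested did. Prkar1b, a regulatory subunit that binds the product of Prkaca, was highest in the amygdala at 23787 ± 2995 (SD, n = 2), lowest in the caudate at 11802 ± 288, and lower in the striatum by a difference of -0.60 (adjusted p = 0.0070). Pkia, a peptide inhibitor of the kinase, was highest in the ventral tegmental area at 5675 ± 346 and lowest in the prefrontal cortex at 2687 ± 508. No kinase gene of the list was higher in the striatum, and the list's median difference there was -0.04.

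The group of phosphoproteins and phosphatases, to which Arpp21 belongs by role, had 5 of 10 tested genes past the threshold in the striatal comparison, where 3.86% of all tested probe sets passed in either direction. Ppp1r1a, an inhibitor of protein phosphatase 1 that acts when phosphorylated by the kinase, was 1.68-fold higher (adjusted p = 0.0031), Ppp1r2, another inhibitor of that phosphatase, 2.10-fold (adjusted p = 0.0021), Ppp3ca, the catalytic subunit of calcineurin, 1.80-fold (adjusted p = 0.018), and Ppp1cc, a catalytic subunit of protein phosphatase 1, 1.57-fold (adjusted p = 0.010). Stmn1, which the naming rule did not take and which is named after its value was seen, was lower by a difference of -0.54 (adjusted p = 0.025, or 0.061 with arrays scaled to one median). The median difference of this list was 0.30. Ppp1r1b, also listed, had no probe set annotated to it alone.

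Of 9 tested receptors, Drd1, Adora2a and Drd2 were higher in the striatum, where 2.06% of all tested probe sets were. On the log2 scale the differences were 1.20 for Adora2a and 0.89 for Drd2. For Drd1 it was at least 2.67 on S46131mRNA_s_at, whose ventral tegmental mean lay under the floor. The other tested probe set of Drd1, M35077_s_at, gave 1.39 (adjusted p = 7.2e-05, limma). The list of receptors was chosen with such a pattern known. Among 6 tested effectors and transcription factors 1 differed across regions, again beside 9.62% of all tested: Rapgef4, an exchange factor that binds cyclic AMP, was 3842 ± 1073 (SD, n = 2) in the prefrontal cortex but 1391 ± 47.7 in the ventral tegmental area and did not pass in the striatal comparison (adjusted p = 0.77). The 1 calmodulin gene tested, Calm2, did not pass across regions.

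**Figure D3:**
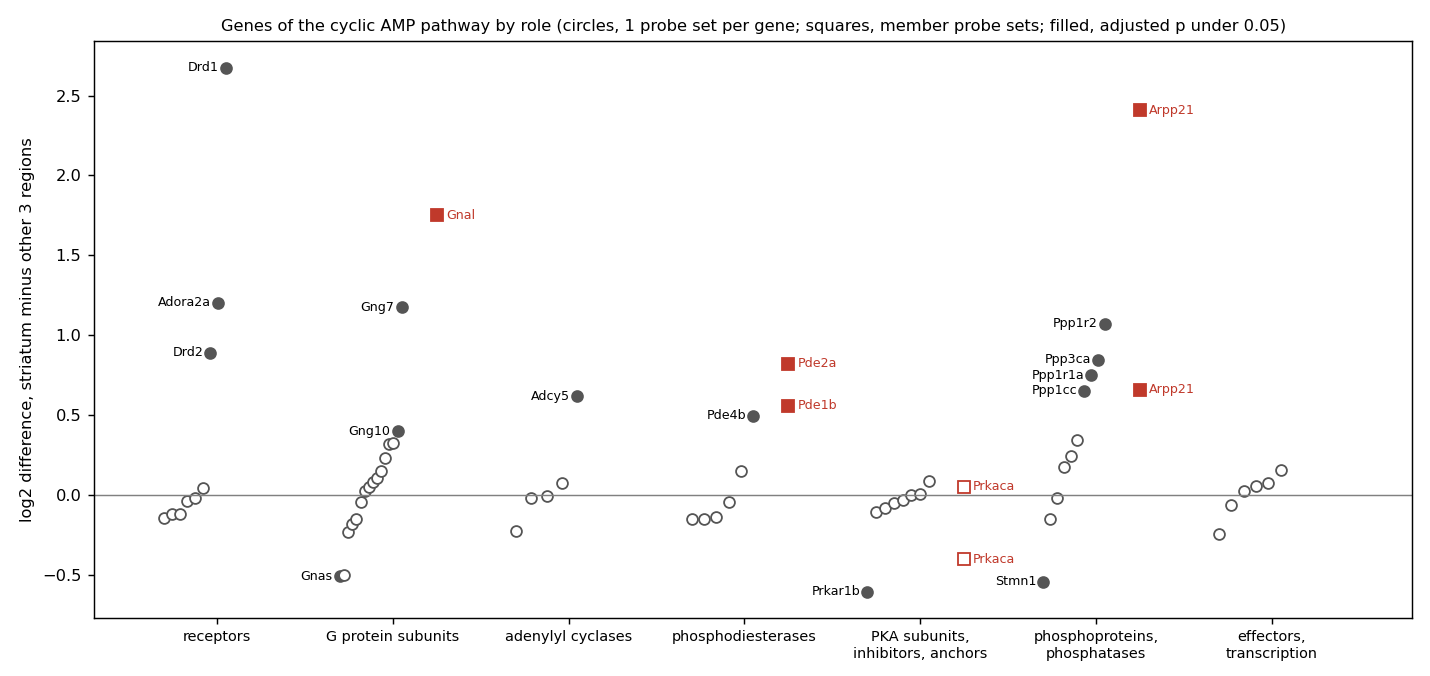
Log2 difference between the striatum and the other 3 regions for tested genes of the cyclic AMP pathway, grouped by role along the horizontal axis. Circles are 1 probe set per gene, squares are the member probe sets, and filled symbols have an adjusted p under 0.05 by limma over 10 arrays. Gnal, Gng7 and 1 of the Arpp21 squares lie above 1 while Gnas, Prkar1b and Stmn1 lie below -0.5, and both Prkaca squares are open.

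The genes whose patterns were most like those of the members were found by Pearson's r over the 10 arrays, as a description. For Gnal these were Drd1 (r = 0.974), Ppp1r2 (0.948), Ptpn5 (0.947), Pde4b (0.947) and Penk (0.942). For Arpp21 S65091_g_at they were Kcnab1 (0.970), Gucy1a1 (0.965), Adcy5 (0.960), Inf2 (0.958) and Ptpn5 (0.957), and for Pde1b they were Gng7 (0.968), Drd1 (0.945), Adcy5 (0.939), Ptpn5 (0.937) and Inf2 (0.933). Pde2a kept other company: Abi2 (0.981), Fkbp1a (0.968), Dlgap3 (0.968), Gria2 (0.964) and Celf1 (0.949). For Prkaca X57986mRNA_s_at they were Psmc5 (0.990), Pdia6 (0.977), Tubg1 (0.973), Hspa5 (0.970) and Polr2g (0.969). The 10 arrays are pairs from 5 regions, so these values rest on few independent points. Between members, Pde1b correlated with Gnal at r = 0.91 and with S65091_g_at at r = 0.91, and X57986mRNA_s_at of Prkaca was negatively correlated with all members but its own second probe set, down to r = -0.79 with S65091_at.

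Cocaine was set against saline across the 5 regions, with region as a block. None of the 7 probe sets passed the threshold by limma, and none of the 4894 tested did (0% of all). At an unadjusted p under 0.05 there were 62 probe sets and no member, and the smallest unadjusted p of a member was 0.33. The mean log2 differences were -0.02 ± 0.082 (SE) for Gnal, 0.03 ± 0.11 for S65091_at and -0.04 ± 0.13 for S65091_g_at of Arpp21, and 0.02 ± 0.084 for Pde1b. For Pde2a it was -0.10 ± 0.099, and for Prkaca 0.04 ± 0.064 on X57986mRNA_r_at and -0.08 ± 0.15 on X57986mRNA_s_at. The prefrontal ratio of Gnal and the ventral tegmental ratio of S65091_g_at enter as 0, here and in the sign-flip test, because their values were raised to the floor.

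Each interval is for the mean of a probe set over the 5 regions, without adjustment for the number of probe sets tested. An effect outside an interval could also fail to reach the adjusted threshold, so the intervals do not bound what could go undetected. Ratios of opposite sign in different regions offset each other in such a mean. For Gnal the interval ran from -0.21 to 0.17, for Pde1b from -0.17 to 0.22, and for Pde2a from -0.33 to 0.13 on the log2 scale. For Arpp21 it ran from -0.22 to 0.27 on S65091_at and from -0.34 to 0.26 on S65091_g_at. For Prkaca it ran from -0.11 to 0.19 on X57986mRNA_r_at and from -0.42 to 0.25 on X57986mRNA_s_at. The exact sign-flip permutation test over the 5 regions, two-sided, gave p between 0.50 and 1 over the 7 probe sets, adjusted to 1, and cannot go below 0.0625 with 5 regions. No member moved the same way in all 5 regions, as 3.09% of tested probe sets did.

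Within a region, 1 array stood against 1, so the log2 ratios of cocaine over saline are given without a test. Gnal was -0.18 in the caudate, -0.22 in the accumbens, 0.22 in the amygdala and 0.09 in the ventral tegmental area, with both prefrontal values under the floor. Both striatal ratios were thus below 0 and the other measured ones above it. Over all tested probe sets the ratio had a median of -0.03 and an SD of 0.13 in the caudate, and of -0.03 and 0.15 in the accumbens. These were -0.03 and 0.33 in the amygdala, and 0.03 and 0.21 in the ventral tegmental area.

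Arpp21 S65091_g_at was 0.04 in the caudate, 0.33 in the accumbens, 0.07 in the amygdala and -0.66 in the prefrontal cortex, with both ventral tegmental values under the floor. S65091_at gave -0.13, 0.13, -0.38 and 0.27 in the same regions and 0.23 in the ventral tegmental area. The probe sets of this gene thus had opposite signs in the caudate, the amygdala and the prefrontal cortex.

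The ratios of Pde1b were -0.01 in the caudate, -0.14 in the accumbens, -0.20 in the amygdala, 0.24 in prefrontal cortex and a like 0.22 in the ventral tegmental area. Those of Pde2a were -0.15, 0.03, 0.26, -0.41 and -0.25 in that order of regions. The 2 phosphodiesterases had the same sign only in the caudate.

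For Prkaca, X57986mRNA_s_at was -0.35 in the caudate, 0.18 in the accumbens, 0.45 in the amygdala, -0.63 in prefrontal cortex and only -0.08 in the ventral tegmental area. X57986mRNA_r_at was 0.22 in the accumbens and between -0.02 and 0.01 in the other 4 regions. The only region in which the pair of probe sets both departed from 0 in the same direction by more than 0.1 was the accumbens.

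Of the 35 ratios, 2 reached 1.5-fold, both lower with cocaine in the prefrontal cortex: S65091_g_at of Arpp21 at 1.58-fold and X57986mRNA_s_at of Prkaca at 1.54-fold. In that region 4.94% of tested probe sets reached 1.5-fold, and 1.70% were lower by that much. The other regions had 8.89% in the amygdala, 1.72% in the ventral tegmental area, 0.245% in the accumbens and 0.143% in the caudate, with no member among them. The prefrontal cocaine array is the one that stood apart from the rest, and its part in these ratios was not tested. The other probe set of each gene had prefrontal ratios of 0.27 for S65091_at and 0.00 for X57986mRNA_r_at.

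**Figure D4:**
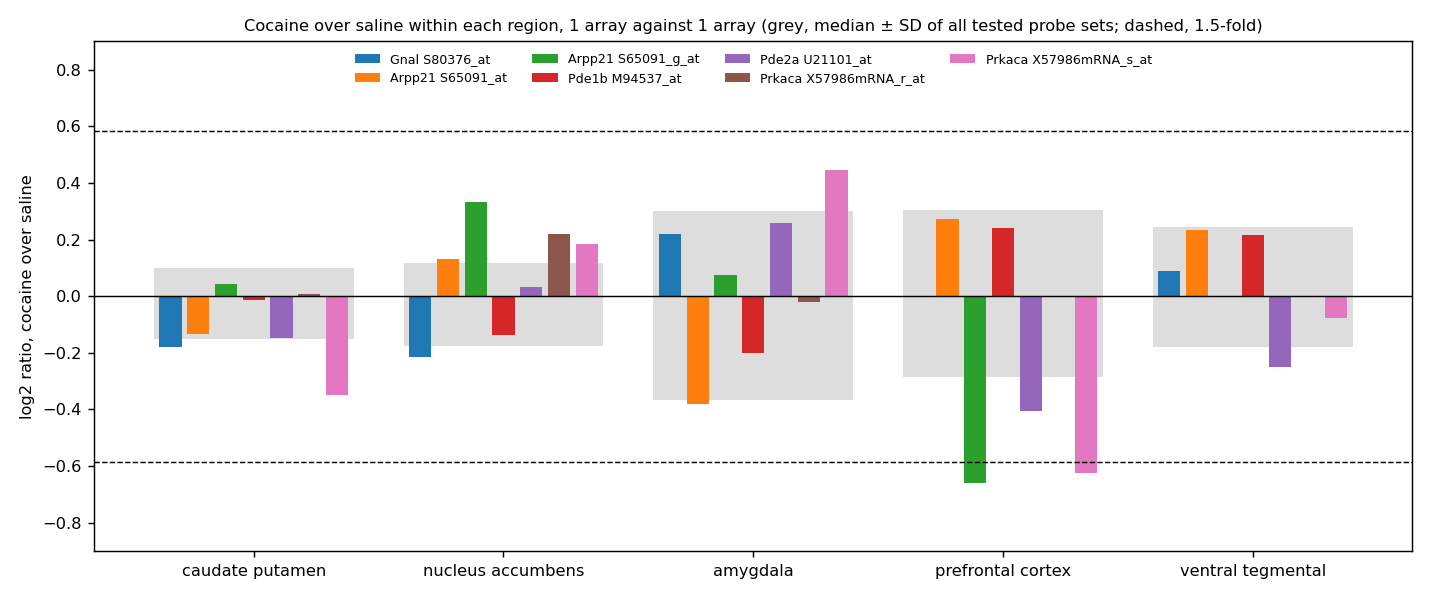
Log2 ratio of cocaine over saline for the 7 member probe sets within each of the 5 regions, 1 array against 1 array. Coloured bars are probe sets, grey bands the median ± SD of the ratio over all tested probe sets of the region, and dashed lines 1.5-fold; bars at 0 for Gnal in the prefrontal cortex and S65091_g_at in the ventral tegmental area have both values under the floor. Only S65091_g_at and X57986mRNA_s_at in the prefrontal cortex pass a dashed line, at -0.66 and -0.63.

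The cocaine response was also compared between the striatum and the other 3 regions, as an interaction. No member passed by limma, nor did any of the 4894 probe sets (0% of all), and at an unadjusted p under 0.05 there were 14 probe sets and no member. The difference in response, striatal minus other, was -0.30 ± 0.15 (SE) for Gnal, with an interval from -0.65 to 0.055, and 0.38 ± 0.25 for S65091_g_at of Arpp21, with an interval from -0.22 to 0.98. For S65091_at it was -0.04 ± 0.24, for Pde1b -0.16 ± 0.18, for Pde2a 0.07 ± 0.22, and for Prkaca 0.12 ± 0.14 on X57986mRNA_r_at and 0.00 ± 0.33 on X57986mRNA_s_at. Floored ratios of 0 enter the estimates and SEs of Gnal, from the prefrontal cortex, and of S65091_g_at, from the ventral tegmental area. In the lists of the pathway no gene passed for cocaine over saline or for this interaction. The smallest unadjusted p of a member was 0.085.

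Markers of other cell types also differed between the arrays of a region. The summed index of 3 genes of the choroid plexus was 46768 on the saline and 20264 on the cocaine array of the caudate, and 51804 and 38406 in the amygdala. That of 5 genes of dopamine neurons was 24467 and 31648 in the ventral tegmental area and between 16761 and 20320 in the other regions. The part of these differences in the members' cocaine ratios was not tested.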

How the data were processed

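Total RNA of 10 rat brain samples was measured on single-colour arrays. Per the labels, the authors computed the deposited values, intensities on a linear scale, as the expression index of dChip, which fits a model to the probes of a set. The sources used here do not give its version, model or scaling.

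Of 8799 probe sets, 59 controls were left out. The other 8740 comprised 7006 with 1 symbol, 308 with several and 1426 with none. No further normalization was applied. Exact zeros were treated as no value, values under the 20th percentile of those above 0 (index 1028) were raised to it, and log2 was taken. The upper 60% by mean index were 5244 probe sets, and the 4894 of them with a value on every array were tested with limma 3.58.1 in R 4.3.3 (eBayes with an intensity trend, Benjamini-Hochberg adjustment over all tested probe sets within a comparison, threshold 0.05). Leaving out the 350 with a zero was decided after the data were seen. The model held region and treatment, with 4 residual degrees of freedom, or 3 with the interaction, and was tested on simulated data. Nothing says that samples came from separate animals, so p-values reflect only the spread among these samples, which may be technical. Their number limits the precision.

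Members, gene lists and markers were chosen with earlier results of these data known. All member probe sets are named in each comparison. The probe set with the highest mean stands for a gene, and each pathway list names up to 4 genes with the smallest p across regions. The alternatives were zeros raised to the floor, other scalings, another floor, all probe sets tested, no trend, no treatment term, adjustment over all pairs together, arrays left out, and, chosen after the data were seen, probe sets with some zeros and both amygdala or both prefrontal arrays left out.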

Additional observations from a re-analysis of the deposited data

Results flagged for a closer look

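The cocaine ratios of Gnal, each from 1 array against 1, had opposite signs inside and outside the striatum where they could be measured. The log2 ratio of cocaine over saline was -0.18 (caudate) and -0.22 (accumbens) in the striatum, and outside it 0.22 in the amygdala and 0.09 in the ventral tegmental area. Over all tested probe sets the SD of the ratio was 0.13, 0.15, 0.33 and 0.21 in these regions. Both prefrontal values lay under the floor, so the ratio of that region enters the test as 0. The striatal response minus the other was -0.30 ± 0.15 (SE), and the test of that difference, limma's interaction term, did not pass, with an adjusted p of 1 and an unadjusted p of 0.085.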

How the results depend on the processing

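With all probe sets tested, members past the threshold numbered 3 across the 5 regions, 7 in 1 region against the rest, 2 in the striatum (Gnal and S65091_g_at of Arpp21) and 14 between pairs of regions, against 5, 15, 5 and 28. In the same order, the calls on the whole array were 193, 569, 106 and 1101 with 8229 probe sets tested. They were 471, 1084, 189 and 2060 with the 4894. Zeros raised to the floor left 3 across the regions, 12, 5 and 20, and on the whole array 285, 801, 131 and 1438 with 5244 probe sets tested. The other alternatives on all 10 arrays gave counts within 1.5 times, and no alternative made a member pass for cocaine or for the interaction. Leaving out 1 array gave 3 to 6 across the regions (3 without either array of the caudate, accumbens or ventral tegmental area), 9 to 19 in 1 region against the rest, 2 to 6 in the striatum, 16 to 38 between pairs, and 0 to 0 for cocaine and for the interaction. Without both amygdala arrays 131 probe sets, no member among them, passed for the interaction. Without both prefrontal arrays the striatal count was 6, where 218 of 5033 tested probe sets passed.

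The differences whose sign turned ran from -0.12 to 0.071 on the log2 scale with the main settings. Amygdala minus the mean of the other 4 became -0.0092 for Pde1b with quantile normalization, and 0.0048 for Gnal and 0.074 for S65091_g_at with the floor at the 10th percentile. Without both prefrontal arrays, cocaine minus saline became -0.037 for S65091_at, 0.11 for S65091_g_at, -0.034 for Pde1b and 0.051 for X57986mRNA_s_at. With 1 array left out, the amygdala difference ranged from -0.26 to 0.25 for S65091_at, -0.19 to 0.0017 for S65091_g_at, -0.19 to 0.10 for Gnal, -0.12 to 0.15 for Pde1b, -0.056 to 0.020 for X57986mRNA_r_at and -0.26 to 0.40 for X57986mRNA_s_at. Cocaine minus saline ranged from -0.077 to 0.032 for Gnal, -0.037 to 0.13 for S65091_at, -0.14 to 0.11 for S65091_g_at, -0.034 to 0.077 for Pde1b, -0.0036 to 0.056 for X57986mRNA_r_at and -0.22 to 0.051 for X57986mRNA_s_at. The accumbens difference of X57986mRNA_r_at ranged from -0.19 to 0.035 and of X57986mRNA_s_at from -0.28 to 0.060, the striatal difference of X57986mRNA_r_at from -0.0030 to 0.11, and the prefrontal difference of Pde2a from -0.31 to 0.065. The cause of each was not tested.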
